A study of Mus musculus with 15 samples.

Results

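Myelin is the stacked membrane that oligodendrocytes wrap around axons in the central nervous system. It speeds conduction, and the cells that make it also feed the axons they cover. The 8 genes described here, Mbp, Mog, Mag, Cnp, Mobp, Mal, Cldn11 and Opalin, encode proteins of that membrane or enzymes bound to it, and in brain their RNA is used as a marker of mature oligodendrocytes. Cortical grey matter holds fewer of these cells than the white matter beneath it.

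Members were all listed transcripts whose gene name is one of the 8 symbols, which gave 16 of the 10370 listed transcripts, from 8 of 7741 genes. They were measured by total RNA sequencing in cortex of male C57BL/6 mice (12 weeks of age by the labels, and of the C57BL/6J substrain by the study's methods) taken 1 month after sham treatment (Sham, n = 7 libraries) or repeated head impact at high frequency (HF-HI, n = 8). HF-HI mice received repeated impacts to the head under isoflurane on consecutive days, and the Sham group was handled and put under isoflurane in the same way without being hit. The labels name no transgene and no drug for either group. The RNA came from whole tissue, so fewer oligodendrocytes and less RNA per oligodendrocyte cannot be told apart in these values. The labels do not say whether each library came from a separate animal, and the p-values measure the spread between these libraries.

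The 15 libraries held 5798810 to 10582858 reads in listed transcripts in Sham and 3496103 to 8666307 in HF-HI. Levels are given as normalized counts, that is reads divided by the library's size factor, and 1 read was worth 0.679 to 1.997 normalized counts. None of the 49 pairs of libraries within a group agreed within sampling noise (chi-square per degree of freedom 9.55 to 36.6). Each library was counted as a separate sample, although this comparison cannot tell 2 libraries of 1 animal from libraries of 2 animals. All 8 genes had reads in every library, from at least 62 reads for Opalin to at least 6362 for Mbp.

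The labelled tissue was checked against marker lists. All 16 neuronal genes and all 16 astrocyte genes were listed, as were 8 of 14 microglial, 8 of 11 endothelial, 21 of 22 striatal and 4 of 8 hippocampal genes, 1 of 8 choroid plexus genes (Ttr) and 1 of 7 Schwann cell genes. No listed gene of these lists was at 0 in any library. Only transcripts with a mean of at least 107.9 normalized counts were listed, so this is no check of the tissue. Ttr, the transthyretin of choroid plexus, ranged from 34.97 to 6685 normalized counts over Sham libraries and from 21.04 to 8663 over HF-HI libraries. Summed levels of the striatal list ranged from 19384 to 26403 normalized counts over Sham libraries and from 15186 to 25460 over HF-HI libraries.

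The genes differed widely in abundance. Per kilobase of transcript, Mbp (myelin basic protein, which holds the inner faces of the membrane together) stood at 6376 ± 519 normalized counts per kilobase (SD, n = 15 libraries), above 99.5% of the 7741 genes. Mobp, another small basic protein of compact myelin, followed at 2137 ± 212 normalized counts per kilobase and lay above 98.3% of genes. In this cortex both were therefore among the most abundant RNAs per length.

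The genes in the middle of the order were close to each other per kilobase. Cnp, the cyclic nucleotide phosphodiesterase of uncompacted myelin, stood at 760.0 ± 64.3 normalized counts per kilobase, Mal, a lipid raft protein of myelin membranes, at 639 ± 46.7 and Cldn11, the tight junction claudin of myelin, at 533 ± 43.7. The ranges over libraries overlapped between Cnp and Mal and between Mal and Cldn11, although within every library Cnp lay above Mal and Mal above Cldn11. Mag, the adhesion glycoprotein on the axon-facing membrane, followed at 399 ± 26.3 normalized counts per kilobase, and its range overlapped that of Cldn11. Mog, a glycoprotein of the outermost lamella, stood at 181 ± 17.1 and Opalin, a transmembrane glycoprotein of oligodendrocytes, at 71.8 ± 6.62, above 27.8% of genes, and neither range met that of a neighbour.

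The first comparison asked whether the myelin genes differed between HF-HI and Sham cortex 1 month after the impacts. None of the 8 genes did by the test used. At gene level, with normalized counts summed over the listed transcripts, the log2 differences (HF-HI minus Sham) lay between -0.03 and 0.07. By limma 0 of 8 genes were at an unadjusted p under 0.05, where 9.95% of all 7741 genes were. At an adjusted p under 0.1 there were 0 of 8, and 0 of all 7741 genes. A share of 9.95% leaves few calls to be had among 8 genes, so these counts do not set the myelin genes apart. Limma's voom on the recovered reads also put 0 of the 8 genes under an unadjusted 0.05, where 731 of all 7741 genes were. The exact permutation test over all 6435 assignments of the group labels put 0 of the 8 under 0.05 and was run on these genes alone. The median difference of the 8 genes was 0.003 on the log2 scale, and that of all genes was -0.006.

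Mbp summed over its 6 listed transcripts had a lowest, median and highest value of 10603, 11766 and 12326 normalized counts in Sham. In HF-HI these were 9512, 12014.5 and 12797. The HF-HI range enclosed the Sham range, with both the lowest library (HF-HI replicate 1) and the highest (HF-HI replicate 2) in that group. The log2 difference was 0.01 ± 0.06 (SE), with an exact two-sided permutation p of 0.938. With log2 size factor as a covariate its sign turned (-0.07; limma, unadjusted p = 0.248).

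Mobp had 4501, 4832 and 5734 normalized counts as lowest, median and highest value in Sham and 4622, 5164 and 5519 in HF-HI. Here the Sham libraries spanned the HF-HI libraries, and the log2 difference was 0.02 ± 0.05 (SE; exact permutation p = 0.728). Mal gave 1628, 1689 and 2058 normalized counts in Sham against 1670, 1759 and 1963 in HF-HI. Although Mal exceeded its Sham median in 7 of 8 HF-HI libraries, Sham replicates 6 and 7, at 1956 and 2058, were among the 3 highest of all 15. The log2 difference of Mal was 0.01 ± 0.05 (SE; exact permutation p = 0.795), and -0.01 with log2 size factor as a covariate.

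Cnp had the largest difference of the 8 genes with all libraries and no covariate. Its values were 1631, 1903 and 2057 normalized counts (lowest, median and highest) in Sham and 1732, 1999.7 and 2353 in HF-HI, and it exceeded its Sham median in 5 of 8 HF-HI libraries. The log2 difference was 0.07 ± 0.06 (SE), and neither limma (adjusted p = 0.744) nor the exact permutation test (p = 0.329) placed it beyond the spread between libraries. It was 0.03 without HF-HI replicate 2 and 0.03 without Sham replicate 4, and its sign turned with log2 size factor as a covariate (-0.02) and with the protein-coding transcript alone (-0.05).

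The 2 adhesion glycoproteins gave values close to each other in the 2 groups. Mag had 912, 969 and 1027 normalized counts in Sham against 857, 962 and 1097 in HF-HI (log2 difference -0.03 ± 0.05, SE; exact permutation p = 0.586). Mog had 270.3, 314 and 358 in Sham and 282, 300.2 and 357 in HF-HI (0.00 ± 0.07; exact permutation p = 0.990). For both, 2 of 8 HF-HI libraries exceeded the Sham median.

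Cldn11 had 829, 1003 and 1141 normalized counts in Sham against 874, 980.5 and 1113 in HF-HI (log2 difference 0.00 ± 0.06, SE; exact permutation p = 0.997). Opalin, the least abundant, had 108, 138 and 149 in Sham and 120, 129 and 146 in HF-HI (-0.03 ± 0.08; exact permutation p = 0.666). For both genes the lowest library was Sham replicate 4 and the HF-HI range lay within the Sham range.

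**Figure D1:**
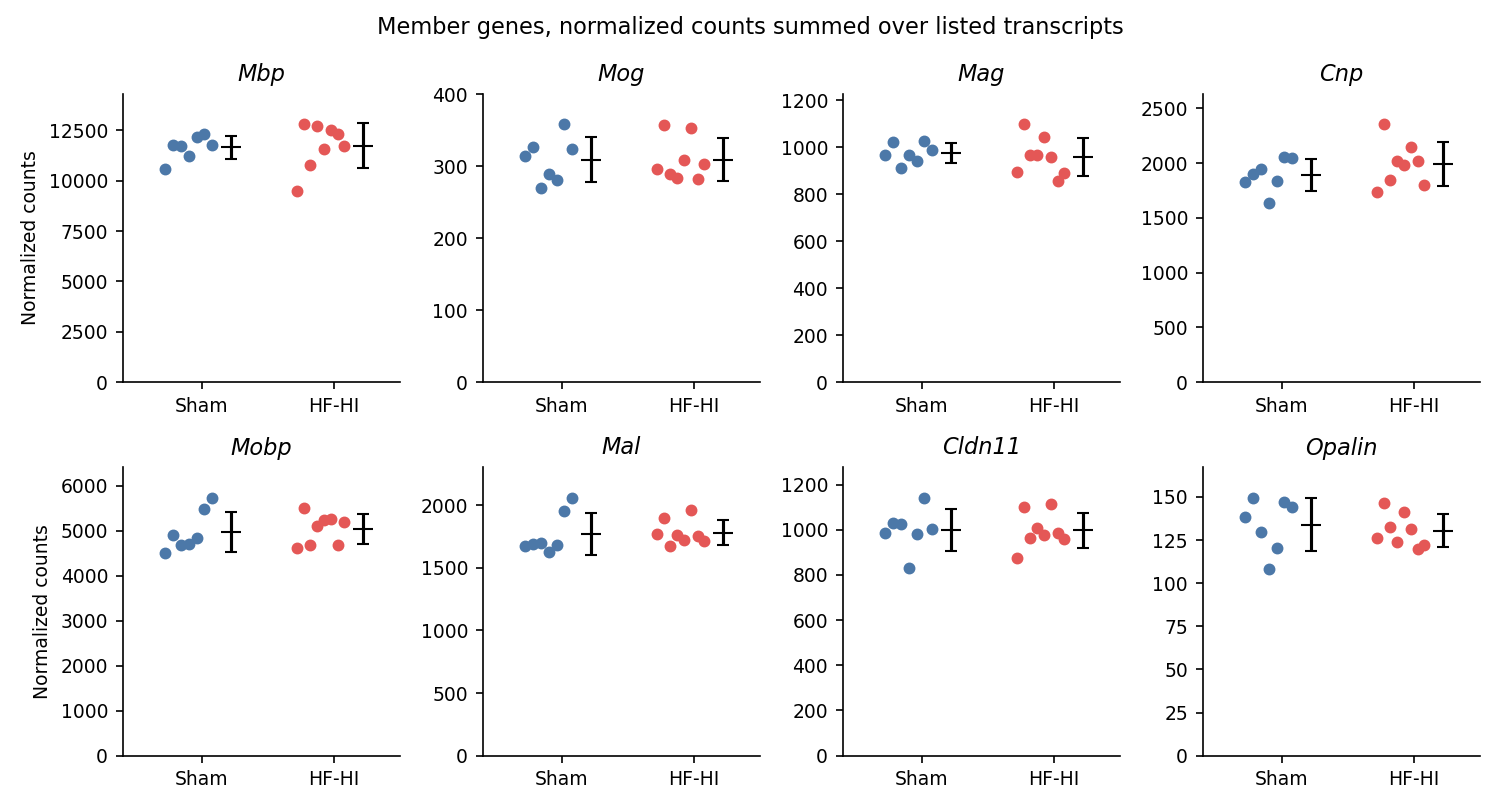
Normalized counts (vertical axes, from 0) of the 8 myelin genes, summed over listed transcripts, in 7 Sham (blue) and 8 HF-HI (red) libraries, 1 point per library in replicate order, with the group mean and SD as a bar beside the points. For each gene the 2 groups overlap, as for Mbp at 10603 to 12326 in Sham and 9512 to 12797 in HF-HI.

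These intervals limit what could have gone unseen. Taken over the 8 genes, the 95% intervals of the log2 differences reached from -0.21 to 0.20, which is a change between -13.5% and 14.8%. The widest was that of Opalin, for which as few as 62 reads were counted in a library, and the narrowest was that of Mag, from -8.65% to 5.31%. A difference anywhere within a gene's interval is compatible with its values, and a p above the threshold does not show that the groups were equal. Of the 21 listed striatal genes, 4 had lower values in HF-HI by limma at an unadjusted threshold of 0.05 (Pde10a, Ptpn5, Penk and Tac1, named after their values were seen), against 4.55% of all genes, and 0 higher, against 5.4%, with a median log2 difference of -0.17. With the mean of that list as a covariate 0 of the 8 myelin genes were under 0.05, and the share of all genes in that fit was not counted.

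At transcript level the comparison was made on the deposited variance-stabilized values (VSD), a log2-like scale that compresses differences, more so for less abundant transcripts. A VSD difference is therefore smaller than a log2 difference, as for Cnp-204 at 0.10 on VSD and 0.22 on log2(normalized count + 1). None of the 16 transcripts was at an unadjusted p under 0.05 by limma, where 8.83% of all 10370 transcripts were (4.94% higher and 3.9% lower in HF-HI), and none was at an adjusted p under 0.1, nor was any other transcript (smallest adjusted p = 0.206). The VSD differences lay between -0.03 and 0.10, with 9 of 16 above 0. Voom on the recovered reads also put 0 of the 16 under 0.05, where 878 of all 10370 transcripts were. No myelin transcript or gene passed the test at either level.

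**Figure D2:**
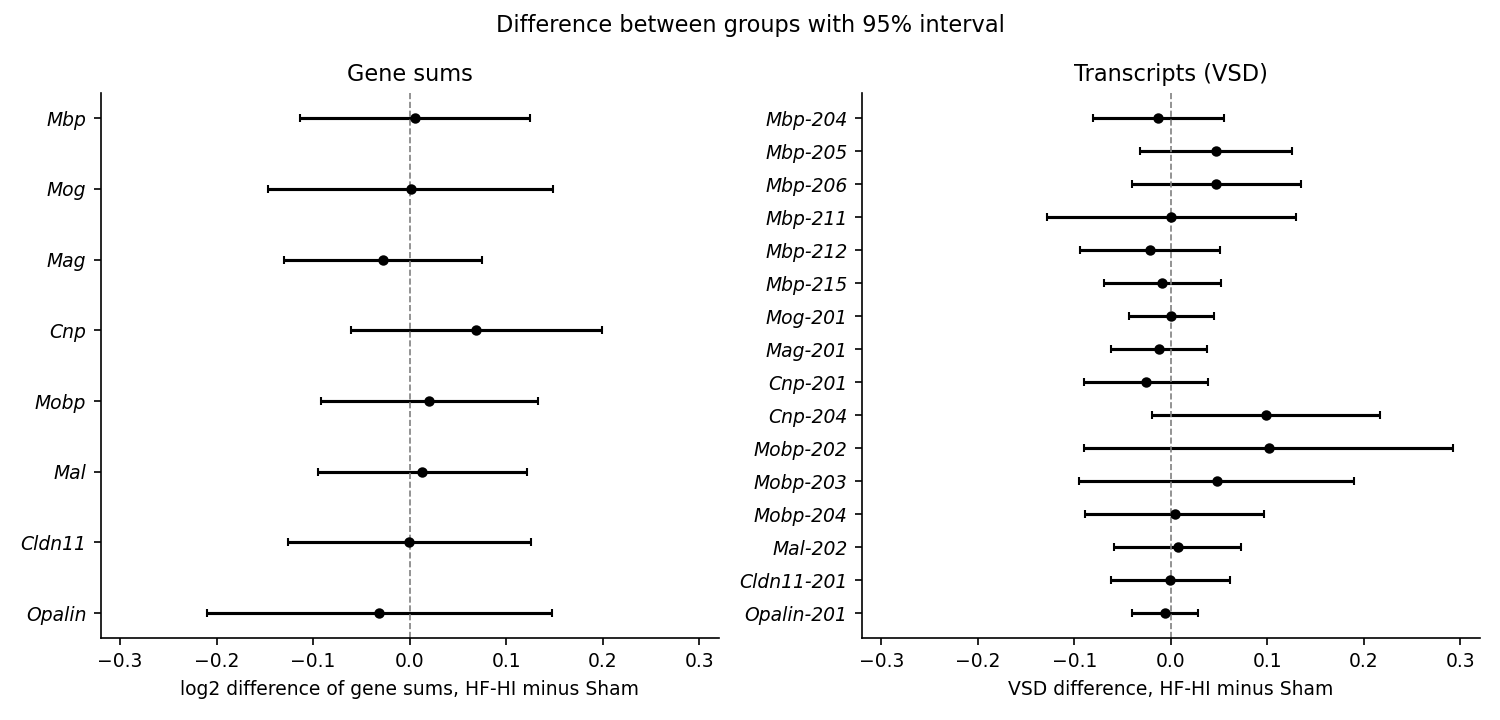
Difference between HF-HI and Sham with its 95% interval, for the 8 gene sums (left, log2 scale) and the 16 transcripts (right, VSD scale). Each interval includes 0, and the widest on the right is that of Mobp-202, from -0.09 to 0.29.

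Mbp, Mobp and Cnp were represented by more than 1 transcript, and how much sequence these shared differed between them. The 6 Mbp transcripts (ENSMUSG00000041607, chromosome 18, plus strand, GRCm38 with GENCODE M21) fall into 2 classes by start. Mbp-205 (ENSMUST00000091789, 82475146 to 82558703, 4 exons) starts 79.3 kb upstream of the others, at the start from which the golli products of the gene arise. These are made in neurons and immune cells as well as in the oligodendrocyte lineage. Of its 4797 bases 94.1% lay in no other listed Mbp transcript. The other 5 transcripts start at 82554470 to 82554580 and encode the classic myelin basic proteins, and Mbp-204, Mbp-206 and Mbp-211 had 0 bases of their own, so that reads had to be divided between them by the quantifier's model.

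Mbp-211 (ENSMUST00000133193, 5 exons, 128 codons) took most of the gene. Its values in Sham were 7059, 7935 and 8243 normalized counts (lowest, median, highest), and in HF-HI 5877, 8237 and 8691, which was 67.0% ± 0.929 of Mbp in Sham and 66.8% ± 2.39 in HF-HI (SD, n = 7 and 8). Mbp-212 (ENSMUST00000142850, 169 codons) followed with 14.7% ± 1.19 and 14.3% ± 1.63. The order of these 2 transcripts held in all libraries.

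The upstream transcript Mbp-205 had 683, 767 and 1047 normalized counts in Sham against 733, 855 and 939 in HF-HI. It exceeded the Sham median in 7 of 8 HF-HI libraries, but the highest value of all was that of Sham replicate 5. The VSD difference was 0.05 ± 0.04 (SE; limma, adjusted p = 0.748), and without Sham replicate 5 it was 0.08 and under an unadjusted threshold of 0.05. Per kilobase Mbp-205 stood at 172 ± 21.3 normalized counts, against 4079 ± 385 for Mbp-211.

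The other 3 Mbp transcripts each took between 3.48% and 4.54% of the gene on average in either group. Mbp-206 (191 codons) had 403, 467 and 603 normalized counts in Sham against 397, 542 and 652 in HF-HI. Mbp-204 (150 codons) had 341, 400.2 and 573 in Sham and 339, 418 and 441 in HF-HI, and Mbp-215 (154 codons) had 386, 433 and 464 in Sham and 300.4, 426 and 502 in HF-HI. Ranges of the 2 groups overlapped for each.

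Mobp (ENSMUSG00000032517, chromosome 9, 120149742 to 120181484, plus strand) was listed with 3 transcripts from 1 start. Mobp-204 (ENSMUST00000174193, 6 exons), which the annotation classes as a target of nonsense-mediated decay, held 94.4% ± 0.787 of the gene in Sham and 93.5% ± 0.972 in HF-HI. Its levels were 4252, 4578 and 5435 normalized counts in Sham against 4300, 4879 and 5147 in HF-HI. All 3 listed Mobp transcripts are annotated with a coding sequence of 81 codons.

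The 2 lesser Mobp transcripts took opposite places in several libraries. Mobp-202 (ENSMUST00000093773) had 0 reads in Sham replicate 4, which allows up to 2.04 normalized counts (3 reads), and 284 normalized counts in Sham replicate 2. Mobp-203 (ENSMUST00000111627), whose 481 bases lie wholly within both other transcripts, had 282 normalized counts in Sham replicate 4 and 43.3 in Sham replicate 2. In HF-HI replicate 2 it was again Mobp-203 that was high, at 288, and Mobp-202 that was the lowest of its group, at 84.6. Over both groups Mobp-202 had a median of 145 in Sham and 194 in HF-HI, and Mobp-203 one of 113 and 134. How the quantifier divided reads between them was not tested.

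Cnp (ENSMUSG00000006782, chromosome 11, 100574904 to 100581728, plus strand) was listed with the coding transcript Cnp-201 (ENSMUST00000103120, 420 codons) and with Cnp-204 (ENSMUST00000150414), a processed transcript with no annotated coding sequence that starts at 100575524. The 2 transcripts shared 2192 exonic bases, and 165 bases were found in Cnp-201 alone and 712 in Cnp-204 alone. Cnp-201 had 977, 1194 and 1246 normalized counts in Sham against 1027, 1085 and 1255 in HF-HI. Cnp-204 had 641, 711 and 847 in Sham and 682, 825 and 1317 in HF-HI.

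Cnp-204 was the transcript with the smallest p of the 16 (VSD difference 0.10 ± 0.06, SE; limma, adjusted p = 0.632). Its share of the gene was 38.7% ± 2.36 in Sham and 43.3% ± 6.47 in HF-HI, and in HF-HI replicate 2 it reached 56.0%, the highest of all libraries. Without that library the VSD difference of Cnp-204 was 0.06 and the log2 difference of its share 0.10, and with log2 size factor as a covariate they were 0.01 and 0.04. Of the 11 transcripts of Mbp, Mobp and Cnp tested for a shift in share, 0 were at an unadjusted p under 0.05 by limma, where 6.23% of 4138 transcripts were (3.48% with a higher and 2.75% with a lower share in HF-HI). The share of Cnp-204 came under that threshold without HF-HI replicate 3 and without HF-HI replicate 5, with log2 differences of 0.18 in both cases against 0.15 with all libraries.

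**Figure D3:**
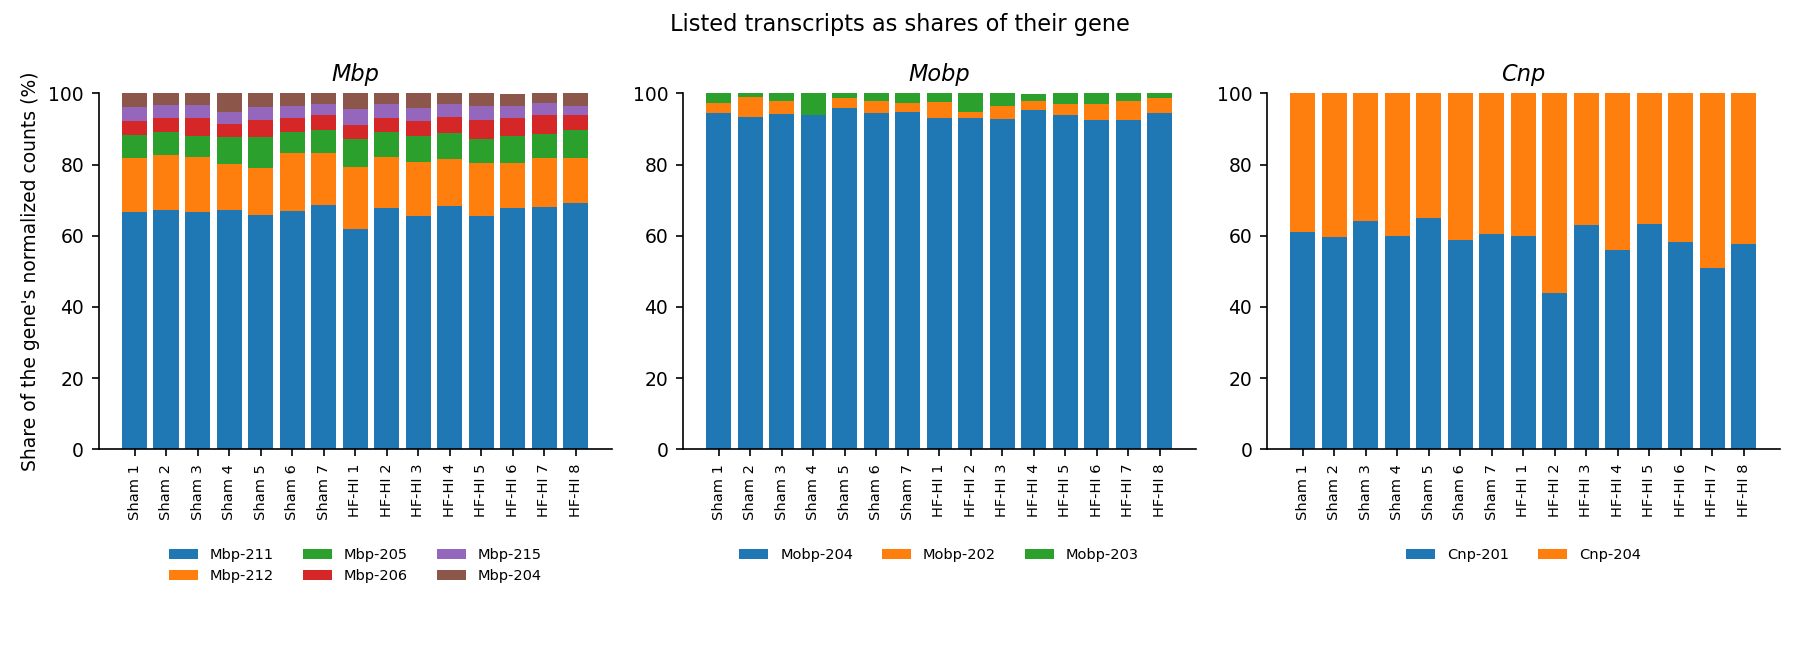
Share of each gene's normalized counts (percent, vertical axis from 0 to 100) taken by each listed transcript of Mbp, Mobp and Cnp in the 15 libraries. Mbp-211 and Mobp-204 lead in each library, and Cnp-204 is widest in HF-HI replicate 2, at 56.0%.

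The remaining genes were each listed with 1 transcript. These were Mog-201 (ENSMUST00000102665, chromosome 17, 37010743 to 37023398, minus strand, 8 exons), Mag-201 (ENSMUST00000040548, chromosome 7, 30899183 to 30914327, minus strand, 12 exons) and Mal-202 (ENSMUST00000028854, chromosome 2, 127633226 to 127656695, minus strand, 4 exons). Cldn11-201 (ENSMUST00000046174, chromosome 3, 31149920 to 31164324, plus strand) has 3 exons and Opalin-201 (ENSMUST00000087176, chromosome 19, 41062473 to 41077113, minus strand) has 6.

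The second question was whether the myelin genes varied together from library to library. The correlations were positive throughout, and none passed adjustment over all pairs tested. Over the 15 libraries the log2 gene sums of the 8 genes had a median Pearson r of 0.61 over 28 pairs, all 28 were above 0, and 19 were above 0.5. Without the 2 libraries farthest from the median of the first gene of a pair, 14 of 28 were above 0.5. The spread of Opalin was 1.07 times that from counting reads alone, which limits what its pairs show. For comparison, all pairs of listed genes had a median r of -0.001, with 4.57% above 0.5. The members share libraries and a tissue piece in each, so the 28 pairs are not independent of each other.

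The pair that varied most alike was Cnp and Cldn11 (Pearson r = 0.86, permutation p = 5.0e-05; Spearman rho = 0.82, permutation p = 0.00037; n = 15). It was 0.79 without the 2 libraries farthest from the median of Cnp, 0.90 within Sham and 0.92 within HF-HI. Mobp and Mal followed (r = 0.80, permutation p = 0.00021; rho = 0.65, permutation p = 0.0105), at 0.67 without the 2 farthest libraries, 0.95 within Sham and 0.53 within HF-HI. After adjustment over the 61892 pairs of a member with any gene, 0 of the 28 pairs and 0% of all pairs were at an adjusted p under 0.1 (adjusted p = 0.512 for both pairs named). At an unadjusted permutation p under 0.05 there were 19 of 28 pairs by Pearson's r and 15 by Spearman's rho, against 6.90% of all pairs of a member with any gene by Pearson's r.

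Mbp was the least like the others, although it is the most abundant. Its r with Opalin was 0.13, with Mog 0.29 and with Mag 0.30, whereas with Cnp it was 0.70 and with Cldn11 0.67. Against the mean of the other 7 genes after group means were removed, Cnp had the highest r at 0.88, followed by Cldn11 at 0.82, Mobp at 0.79 and Mog at 0.77. Mag was at 0.62 and Mbp at 0.54.

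The Mbp transcripts differed among themselves. Mbp-212 had an r of 0.66 with the mean of the other 7 genes, Mbp-211 one of 0.51, Mbp-215 one of 0.39 and Mbp-206 one of 0.20. The upstream Mbp-205 had one of -0.06 and Mbp-204 one of -0.36, so the classic forms lay on both sides of the upstream one. For Cnp, Cnp-204 was at 0.72 and Cnp-201 at 0.45, and their sum at 0.88. Among Mobp transcripts, Mobp-204 was at 0.76, Mobp-202 at 0.36 and Mobp-203 at 0.18. These values are descriptive, as transcripts of 1 gene share their reads.

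The covariation was present within each group. The median r over the 28 pairs was 0.56 within Sham (n = 7 libraries) and 0.68 within HF-HI (n = 8), with all 28 above 0 in both. It was 0.64 after log2 size factor was regressed out and 0.57 after the mean of the striatal list was. Without HF-HI replicate 2, the library highest in myelin genes, it was 0.54.

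The libraries were ordered by the mean standardized log2 level of the 8 genes after group means were removed. HF-HI replicate 2 was highest at 1.43 SD units, followed by Sham replicate 6 at 1.21, Sham replicate 7 at 0.87 and HF-HI replicate 6 at 0.85. Sham replicate 4 was lowest at -1.14 and HF-HI replicate 1 next at -1.09. High and low libraries were thus found in both groups. The mean had an r of -0.20 with log2 size factor over the 15 libraries, 0.45 with the mean of the striatal list, 0.36 with that of the microglial list, 0.08 with the neuronal and 0.06 with the astrocyte list. The part of striatal tissue in this order was not tested.

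**Figure D4:**
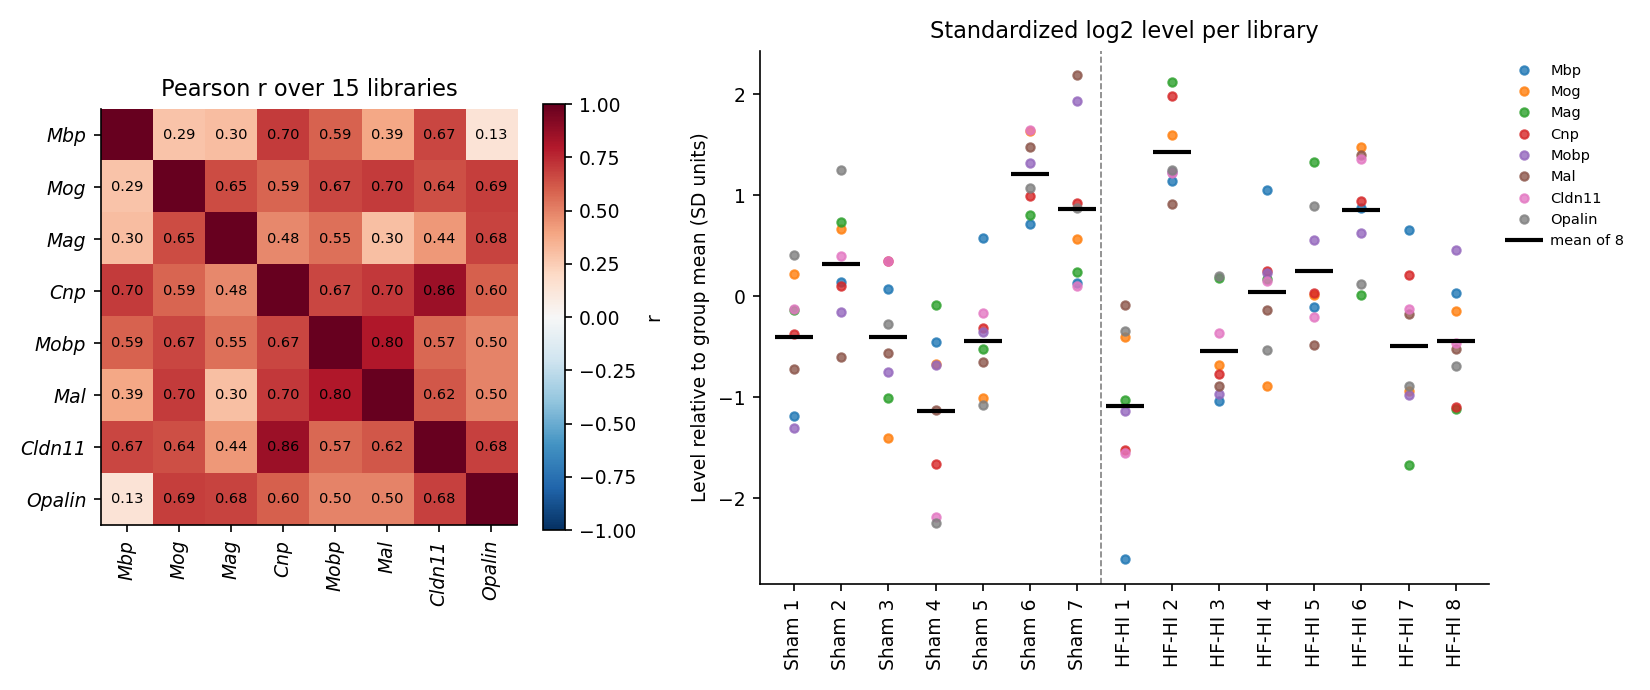
Pearson r between the log2 gene sums of each pair of myelin genes over 15 libraries (left, color scale from -1 to 1) and, on the right, each gene's log2 level per library relative to its group mean, in SD units, with the mean of the 8 genes as a black bar. Each pair is above 0, from 0.13 for Mbp and Opalin to 0.86 for Cnp and Cldn11, and the mean is highest in HF-HI replicate 2 (1.43) and lowest in Sham replicate 4 (-1.14).

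How far each gene varied was compared with what counting alone would give. Mbp had a within-group SD of 0.12 on the log2 scale against 0.014 from counting reads, and Mobp 0.11 against 0.021. Opalin had an SD of 0.14 against 0.13, so its spread was 1.07 times the counting error, and Mog had 0.14 against 0.085. The median within-group SD of all genes was 0.12, and the SDs of the myelin genes lay above those of between 31.9% (Mag) and 60.1% (Opalin) of genes.

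Promoters of the 2 pairs that varied most alike are shown so that the sequence at their starts can be set beside their covariation. The sequences are from RefSeq (GRCm38.p6) and run 5′ to 3′ on the strand of the gene, from 250 bases before to 50 bases after an annotated start. Capitals mark a match, on either strand, to ACAAAG or ACAATG, letters of the kind bound by SOX factors such as SOX10, or to CTGGCAC, 1 form of the letters bound by MYRF. SOX10 and MYRF are known drivers of myelin genes.
Cnp (chr11:100574689-100574988, plus strand): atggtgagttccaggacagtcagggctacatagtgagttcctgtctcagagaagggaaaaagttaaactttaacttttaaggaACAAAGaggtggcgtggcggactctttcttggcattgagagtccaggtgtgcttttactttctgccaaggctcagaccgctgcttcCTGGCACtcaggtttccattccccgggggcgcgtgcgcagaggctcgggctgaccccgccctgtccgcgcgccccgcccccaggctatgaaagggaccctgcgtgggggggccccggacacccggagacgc
Cldn11 (chr3:31149670-31149969, plus strand): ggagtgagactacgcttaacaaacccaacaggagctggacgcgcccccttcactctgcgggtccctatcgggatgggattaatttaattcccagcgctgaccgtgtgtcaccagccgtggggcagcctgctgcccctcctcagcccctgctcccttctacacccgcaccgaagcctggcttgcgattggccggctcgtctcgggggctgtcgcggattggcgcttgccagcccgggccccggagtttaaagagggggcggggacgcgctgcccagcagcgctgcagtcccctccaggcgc
Mobp (chr9:120149492-120149791, plus strand): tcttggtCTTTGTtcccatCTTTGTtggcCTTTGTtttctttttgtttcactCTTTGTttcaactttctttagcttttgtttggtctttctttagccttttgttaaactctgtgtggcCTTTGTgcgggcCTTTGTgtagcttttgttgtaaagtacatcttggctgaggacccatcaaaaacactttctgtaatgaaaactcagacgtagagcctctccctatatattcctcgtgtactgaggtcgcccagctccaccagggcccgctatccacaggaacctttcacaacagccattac
Mal (chr2:127656646-127656945, minus strand): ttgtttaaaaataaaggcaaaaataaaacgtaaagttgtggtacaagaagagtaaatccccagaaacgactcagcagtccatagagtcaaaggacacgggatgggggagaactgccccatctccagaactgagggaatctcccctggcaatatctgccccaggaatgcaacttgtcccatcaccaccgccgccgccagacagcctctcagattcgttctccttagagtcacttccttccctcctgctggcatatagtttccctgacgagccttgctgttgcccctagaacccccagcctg

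In the Cnp window 1 SOX-type and 1 MYRF-type match were found, 167 and 81 bases before the start. The Mobp window held 6 SOX-type matches, all between 243 and 120 bases before the start, in a stretch rich in T where they read CTTTGT. The Cldn11 and Mal windows held neither, so within each pair 1 gene had matches and its partner had none. A match is a description of letters and not a bound site, and no match says only that these letters are not in this window.

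Of the 8 genes, 7 were found in the RefSeq table with 9 windows, and 4 genes had a SOX-type match and 3 a MYRF-type match. By window a SOX-type match was in 5 of 9 and a MYRF-type match in 4 of 9, with the same Mag sites counted in 2 windows. Opalin had 2 SOX-type and 1 MYRF-type match, Mag had 1 of each in 2 overlapping windows of its 3, and Mog had none. The starts of these 2 Mag windows lay 536 and 595 bases from the start of Mag-201. The third Mag window, whose start lay 6 bases from that of Mag-201, held neither kind of match. Of all 32817 promoter windows of the same length, 28.6% held a SOX-type match, 5.01% a MYRF-type match and 1.44% both. At least 4 SOX-type matches were held by 0.137% and 6 or more by 0.00305%. The cutoff of 6 was taken from the Mobp window, which is itself in that share. The share is therefore no independent measure of how rare the Mobp count is.

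Other genes were then ranked by likeness to the mean of the 8 myelin genes, as Pearson's r over the 15 libraries after group means were removed. Among the 10 most alike were Trf (r = 0.84), Gpr37 (0.83), Brf1 (0.80), Slc35g2 (0.80), Kif13a (0.78), Fbxw2 (0.78), Fbxo32 (0.77), Secisbp2l (0.77) and Ubl3 (0.76). Trf encodes transferrin, which oligodendrocytes make in brain, and Gpr37 is a receptor of that lineage. Both and Secisbp2l were on the list of other myelin and oligodendrocyte genes. The 5 most opposed were Crtac1 (r = -0.89), Plxna1 (-0.85), Dynll1 (-0.81), Asb6 (-0.79) and Ssbp2 (-0.77).

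By list, 21 of 59 other myelin and oligodendrocyte genes (35.6%) had an r above 0.5, with a median of 0.37, where 4.67% of all 7733 other genes did, with a median of -0.01. Of the 100 genes most alike, 12 were on this list. Lineage transcription factors had 2 of 9 above 0.5 (Myrf and Id4, median 0.17), precursor genes 1 of 14 (Bcan, median 0.01) and genes of the node of Ranvier and the axoglial contact 0 of 17 (median -0.07). The striatal list had 4 of 21 above 0.5 (Foxp2, Scn4b, Rgs9 and Foxp1), with a median of 0.40.

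In lists of other cell types there were 2 of 16 neuronal genes (Gad1 and Gad2, median 0.19), 2 of 16 astrocyte genes (S100b and Slc4a4, median -0.10), 1 of 8 microglial genes (C1qa, median 0.14), 0 of 8 endothelial (0.13) and 0 of 4 hippocampal genes (0.06) above 0.5. The neuronal list was split, with 6 of 16 below 0, among them Stmn2 (-0.67), Syt1 (-0.59), Camk2a (-0.57) and Map2 (-0.51). Below 0 were also 9 of 16 astrocyte, 3 of 8 microglial, 2 of 8 endothelial and 1 of 4 hippocampal genes. The 1 choroid plexus gene was at 0.34 and the 1 Schwann cell gene at 0.14. The members named for these lists were chosen after their values were seen. S100b is also made by oligodendrocytes.

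**Figure D5:**
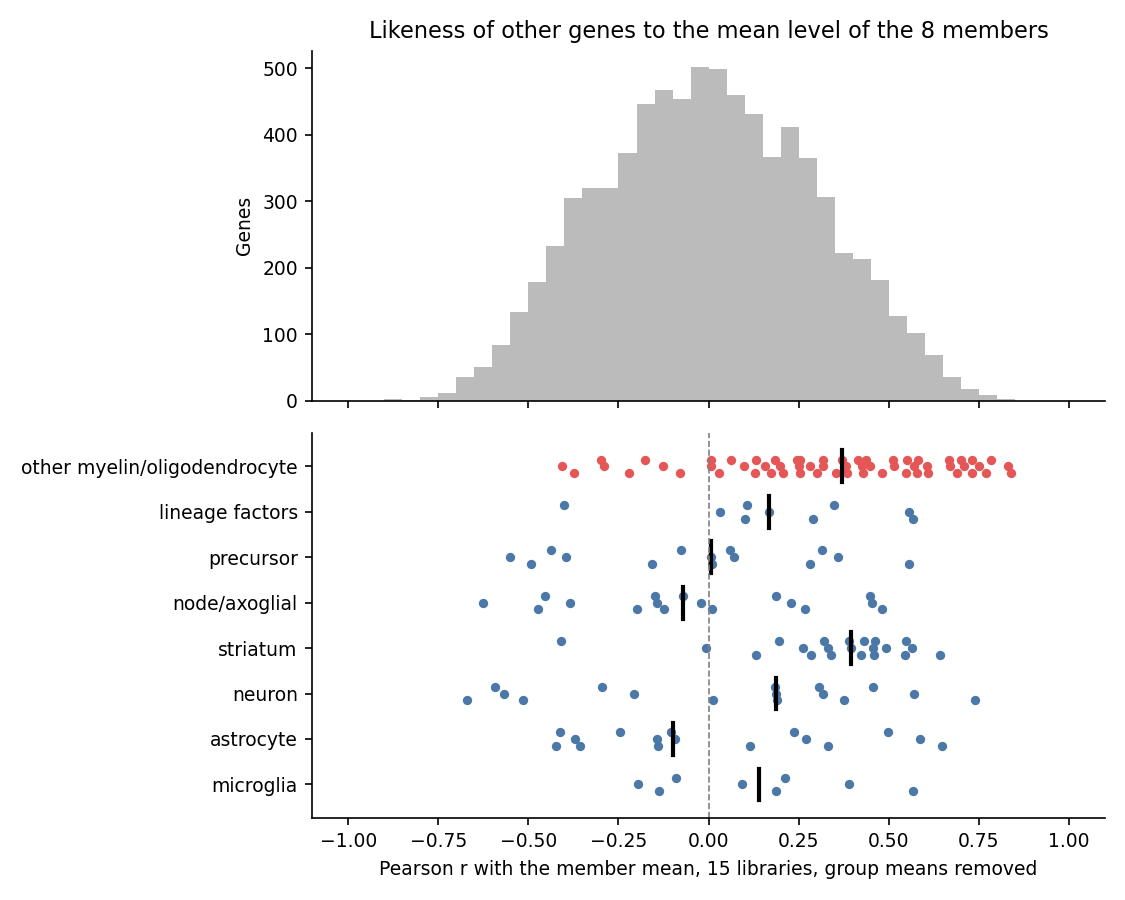
Number of genes by Pearson r with the mean level of the 8 myelin genes (top, bins of r over 15 libraries with group means removed) and the r of each gene of 8 lists (bottom, 1 point per gene, black bar at the list's median). The other myelin and oligodendrocyte genes (red) are shifted to the right, with a median of 0.37 against -0.01 for all other genes, and the striatal list has a median of 0.40.

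The rest of the lineage was compared between groups with the same gene-level fit. Of the 59 other myelin and oligodendrocyte genes, limma put 2 under an unadjusted 0.05 with lower values in HF-HI and 0 with higher values (4.55% and 5.4% of all genes), and none at an adjusted p under 0.1. The 2 were Gpm6b, a membrane glycoprotein also made by neurons (10002 ± 279 normalized counts in Sham, 9574 ± 350.0 in HF-HI, SD; log2 difference -0.06 ± 0.03, SE; limma, adjusted p = 0.464), and Ttyh2, a chloride channel family member (386 ± 21.6 and 348 ± 21.4, -0.15 ± 0.05, adjusted p = 0.319). With log2 size factor as a covariate Gpm6b (-0.04) was not under that threshold, and Ttyh2 (-0.18), Car2 (-0.11) and Gpr37 (-0.12) were. Scd2 and Gpm6b were among the 3 most abundant of the list per kilobase. Scd2, a fatty acid desaturase, had a log2 difference of -0.05 ± 0.03 (limma, adjusted p = 0.643).

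Of 9 transcription factors of the lineage, 1 had higher and 1 lower values in HF-HI at the same unadjusted threshold (5.4% and 4.55% of all genes). Sox8, a SOX factor that acts alongside SOX10, had 250.4, 314 and 360.5 normalized counts in Sham (lowest, median, highest) and 328, 371 and 483 in HF-HI. It exceeded the Sham median in all 8 HF-HI libraries, although the ranges overlapped, and the log2 difference was 0.31 ± 0.09 (SE; limma, adjusted p = 0.269). Id2, an inhibitor of oligodendrocyte differentiation, had 1048, 1082 and 1145 normalized counts in Sham against 785, 1001 and 1106 in HF-HI (log2 difference -0.15 ± 0.05, SE; limma, adjusted p = 0.382). Zeb2 (log2 difference -0.02; limma, adjusted p = 0.887) and Olig1 (-0.07, adjusted p = 0.839) were among the 3 most abundant per kilobase, with Id2. With log2 size factor as a covariate neither Sox8 (0.22) nor Id2 (-0.14) was under 0.05, and Olig1 was instead (-0.21).

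Of 14 precursor genes 1 had higher and 0 lower values at that threshold (5.4% and 4.55% of all genes). This was Ncan, a proteoglycan of the extracellular matrix that neurons and astrocytes also make, with 1847 ± 100.3 normalized counts in Sham against 1969 ± 70.8 in HF-HI (SD; log2 difference 0.09 ± 0.03, SE; limma, adjusted p = 0.382). Bcan and Cspg5, with Ncan the most abundant of the list per kilobase, had log2 differences of -0.04 (limma, adjusted p = 0.808) and 0.01 (adjusted p = 0.975). With log2 size factor as a covariate Ncan (0.06) was not under 0.05, and Bcan (-0.12) and Cspg4 (-0.21), named after their values were seen, were.

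Of 17 genes of the node and the axoglial contact, 3 had higher and 0 lower values at that threshold (5.4% and 4.55% of all genes). Scn8a, the nodal sodium channel, had a log2 difference of 0.06 ± 0.02 (SE; limma, adjusted p = 0.448), Lgi3, a secreted partner of axonal potassium channels, one of 0.13 ± 0.05 (adjusted p = 0.374) and Kcna2, a juxtaparanodal potassium channel, one of 0.11 ± 0.05 (adjusted p = 0.412). Scn8a exceeded its Sham median in 8 of 8 HF-HI libraries and the other 2 in 7 of 8. Kcna1 (0.02; limma, adjusted p = 0.954), Cntn1 (0.00, adjusted p = 0.989) and Prnp (-0.05, adjusted p = 0.608) were the most abundant of the list per kilobase. With log2 size factor as a covariate none of the 3 was under 0.05, and Prnp was (-0.07).

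Lists of other cells were read at the same unadjusted limma threshold of 0.05, which 5.4% of all genes passed with higher and 4.55% with lower values. Of 16 neuronal genes 3 had higher values (Camk2a, Snap25 and Nefm) and 1 lower (Stmn2). Lower values were found for 2 of 16 astrocyte genes (Aldoc and Mlc1) and 1 of 8 microglial genes (P2ry12). All were named after their values were seen, and 0 of the 7741 genes were at an adjusted p under 0.1. Endothelial, hippocampal, choroid plexus and Schwann cell genes gave none in either direction, of 8, 4, 1 and 1 listed. The summed level of the 16 astrocyte genes ranged from 56783 to 58864 normalized counts over Sham libraries and from 56063 to 62013 over HF-HI libraries, and that of the 16 neuronal genes from 75661 to 77621 and from 75370.2 to 81983. The part of these cells in the values of the node and precursor genes was not tested.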

How the data were processed

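Cortical total RNA of 7 Sham and 8 HF-HI libraries was analysed. The authors aligned reads to mm10 with STAR, counted them per transcript with eXpress, and deposited log2-scale variance-stabilized values from DESeq2, 1 column per library (0 columns without a sample). The annotation release is not given in the sources used here, and 10241 of 10370 transcript IDs matched GENCODE M21. Inverting the transformation gave normalized counts and whole reads (100% of values within 0.1 reads). Total reads in listed transcripts were 3496103 to 10582858. Intervals and floors cover the spread between libraries or counting error only.

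HF-HI was compared with Sham by limma 3.58.1 (R 4.3.3), group only, two-sided, on the deposited values, on log2(gene sum + 1) and on log2 isoform shares, with Benjamini-Hochberg adjustment over all features at 0.1. Log2 differences of gene sums and shares used values + 1, and transcript differences are in VSD units unless stated. Sums assume that reads split between transcripts of 1 gene are counted once. Correlations used 100000 permutations. Scripts were tested on simulated data with 200 changed transcripts, at an adjusted p under 0.1. The transcript fit recovered 74% of changed transcripts at a log2 fold of 0.5 and 91% at 1. The share fit recovered 6.39% and 34.7% of the transcripts of genes with a changed transcript. A share that was not called is therefore weak evidence of no shift. The file lists only transcripts with a mean of at least 107.9 normalized counts.

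Members and gene lists (other myelin and oligodendrocyte, lineage factors, precursors, node, neurons, astrocytes, microglia, endothelium, striatum, choroid plexus, Schwann cells, hippocampus) were chosen with earlier results of these data known. Named were all member transcripts, of each oligodendrocyte list the genes at an unadjusted p under 0.05 and the 3 most abundant per kilobase, and the 10 most and 5 least alike genes. One gene that this rule names is not reported here. Alternatives were other scalings, covariates, filters (a mean of at least 300), pseudocounts (16), voom on the recovered reads (1 of 7741 genes at an adjusted p under 0.1, no member), a replicate block and leaving out each library. Same-numbered libraries of the 2 groups did not deviate together. The numbers were not taken to pair the libraries.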

Additional observations from a re-analysis of the deposited data

Results flagged for a closer look

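One value lay apart from the rest of its group. Mobp-203 had 288 normalized counts in HF-HI replicate 2, while the other 7 HF-HI libraries lay between 66.5 and 160.0, so that its gap to the nearest library was large for the range of the group. It was the only 1 of 38 sets of member values (a transcript or gene in a group) in which the highest or lowest library stood apart in this way, and chance alone gives about 1 in 20. Mobp-202 was at 84.6 in the same library, the lowest of its group, and all 481 bases of Mobp-203 lie within the other Mobp transcripts.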

How the results depend on the processing

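The 0 member transcripts at an unadjusted p under 0.05 became 1 with the replicate block (Cnp-204, fitted without HF-HI replicate 8, which has no partner), where 890 of all 10370 transcripts were. The number stayed between 0 and 1 when each library was left out (1 without Sham replicate 5). The 0 member genes became 1 when only protein-coding transcripts were summed, which removes Mobp-204 (Mobp, log2 difference 0.25), and stayed at 0 without each library. The shares gave 0 to 1 without each library (1 without Sham replicate 5, for Mbp-205, and 1 without HF-HI replicate 3 or 5, for Cnp-204). No alternative gave a member at an adjusted p under 0.1, and under an unadjusted 0.05 there were 3 of 604 transcript and gene fits and 3 of 198 share fits. Among these alternatives the share of all genes or transcripts was counted only with the block and with voom.

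The 2 other myelin and oligodendrocyte genes became 7 with the replicate block (4 lower and 3 higher in HF-HI) and 1 to 6 without each library (4 without Sham replicate 5 or HF-HI replicate 4 or 6, 5 without HF-HI replicate 5, 6 without HF-HI replicate 8, and 1 without Sham or HF-HI replicate 7). The 2 lineage factors became 1 with log2 size factor as a covariate and 1 with the block, and 2 to 3 without each library. The 1 precursor gene became 2 with size factor and 2 with the block, and 1 to 4 without each library (4 without Sham replicate 6, 3 without HF-HI replicate 7, 2 without Sham replicate 7 or HF-HI replicate 1, 5 or 8). The 3 node genes became 1 with size factor and 1 to 4 without each library (1 without Sham replicate 2). With the block the node genes called were 2 higher (Lgi3 and Kcna2) and 1 lower (Epb41l3, -0.07), and Scn8a was not called. The precursor genes called with the block were 1 higher (Ncan) and 1 lower (Ptprz1, -0.09). Epb41l3 and Ptprz1 were named after their values were seen. The 752 genes with the block are the comparison for the other lists too. With size factor and without each library the share of all genes was not counted. The causes were not tested.

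The median r of 28 pairs was 0.51 to 0.65 over all alternatives. Without the highest and the lowest library, chosen after seeing the data, it was 0.51, and the r of Mbp and Opalin was -0.040. Same-numbered libraries of the 2 groups had correlations of -0.11 to 0.08 over 7 pairs, and 0 of 7 correlated best with their own number, so the block is only an alternative. Depth limits Opalin most.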
